A study of Mus musculus with 6 samples.

Results

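The T cell receptor complex and its proximal signaling genes were described here as 44 genes, taken from the deposited tables by gene symbol. All 44 had values in every sample, out of 15605 genes with values, and all 44 passed the filter on low counts that left 12546 genes for testing. CD8+ T cells, the cytotoxic T lymphocytes, were obtained by magnetic selection from BALB/c mouse spleen and cultured with neutrophil extracellular traps (NETs) or without them. NETs are webs of DNA and granule proteins released by activated neutrophils, and they were collected here from neutrophils stimulated with phorbol 12-myristate 13-acetate. The NET group had 3 samples at 10 μg/mL and the control group had 3 samples without NETs. Whether the cells of these samples also received antibodies to CD3 and CD28 is not stated in the study's methods. Nothing in the labels ties a sample to its own mouse or culture, so the p-values below rest on a spread that may be technical.

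The T cell receptor recognizes peptides held by major histocompatibility complex proteins and passes the signal through the CD3 and zeta chains, which carry no enzyme of their own. The kinase Lck, brought close by the coreceptors CD8 or CD4, phosphorylates these chains, Zap70 docks on them and phosphorylates the adaptors Lat and Lcp2, and this scaffold activates phospholipase C, Ras and calcium signaling toward NFAT and NF-kB. Phosphatases, ubiquitin ligases, diacylglycerol kinases and the kinase Csk restrain these steps.

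Levels are CPM, the estimated counts divided by library totals that were adjusted by the trimmed mean of M values (TMM), and a gene was called at an edgeR adjusted p below 0.05. With NETs 25 of the 44 genes fell, 9 rose and 10 were not called. Over all genes tested, 22.3% were called lower and 22.3% were called higher. A further threshold of 0.58 on the log2 scale left 16 genes lower and 5 higher, against 11.9% and 13.4% of all genes. The values of the NET and control samples did not overlap for 37 of the 44 genes, against 54.7% of all genes tested. The median log2 fold change of the 44 genes was −0.44, and that of all genes tested was −0.0085. The 44 genes were chosen with earlier results of these data known, so these counts describe the list and are not an independent test of it. Summed over the 44 genes, the level was 12568, 14075 and 14413 CPM in control samples 1 to 3 and 10029, 10776 and 10670 CPM in NET samples 1 to 3. In RNA from a whole culture, fewer cells of a type and less RNA per cell cannot be told apart.

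**Figure D1:**
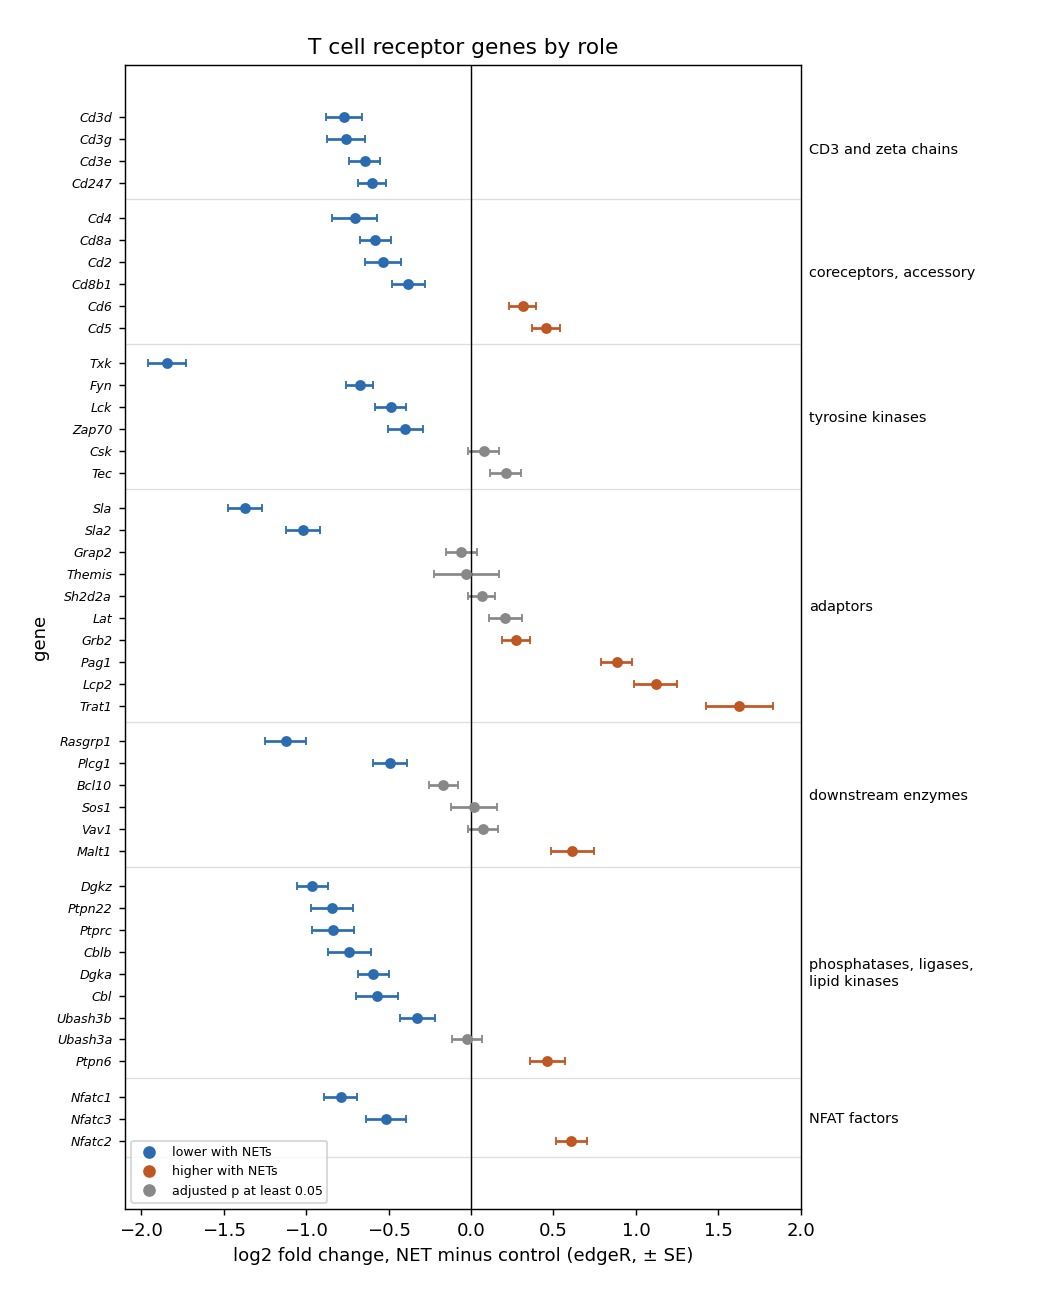
Log2 fold change (NET minus control, edgeR) of each of the 44 genes, grouped by role; points are estimates from 3 samples per group, bars are standard errors and colors give the call. All 4 receptor chains lie below 0, whereas adaptors lie on both sides, from Sla at −1.37 to Trat1 at 1.63.

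Library totals lay between 18696355 and 19425700 estimated counts. Both libraries numbered 1 stood apart from the other 4 on the second principal component, which carried 8.43% of the variance. Without these 2 libraries, 9 of the 44 genes were higher and 26 lower. Among T cell markers outside the 44 genes, Cd28 and Thy1 were not called and Bcl11b was lower (log2 fold change −0.25, edgeR adjusted p = 0.042). Trac, Trbc1 and Trbc2, which encode the constant parts of the receptor's alpha and beta chains, had no values, so these chains are not covered here. Of 5 markers of CD8 T cells outside the 44 genes, the cytotoxic effector genes Gzmb (log2 fold change 0.43) and Prf1 (2.39) were higher, Nkg7 (−1.10) was lower, and Runx3 and Eomes were not called. Their summed level, most of it Gzmb, was 3599 to 4108 CPM in controls and 4651 to 5253 CPM with NETs. Of 10 B cell markers, 9 were higher with NETs, and their summed level lay between 31.8 and 41.2 CPM in controls and between 135 and 217 CPM with NETs. Ebf1, at 0.480 to 0.922 CPM in controls, would not have passed the filter on low counts without the NET libraries. Of 10 macrophage and monocyte markers, 5 of the 7 tested were higher, with sums of 50.3 to 75.7 CPM in controls and 84.2 to 95.7 CPM with NETs. Of these 5, Fcgr1 (0.160 to 0.380 CPM in controls) and Ms4a7 (0.374 to 0.728 CPM) passed the filter only through the NET libraries. Their being higher thus followed from the filter. Neutrophil markers summed to 9.65 to 12.6 CPM in controls and 23.4 to 27.5 CPM with NETs, and the 4 tested were higher. Of these, S100a8 and S100a9 did not exceed 0.214 CPM in any control library. Both passed the filter only through the NET libraries, so their direction followed from it. Elane, Ngp and Ltf were not tested, and their values overlapped between the groups. Mpo held most of the control sum, and Ly6g and Retnlg had no values. Camp, too low to be tested, had 0 CPM in every control library and 0.207 to 0.309 CPM with NETs. Markers of natural killer cells summed to 30.5 to 69.9 CPM in controls and 12.0 to 19.8 CPM with NETs, almost all of it Klrd1, while Ncr1 did not exceed 0.473 CPM in any library. Of 4 dendritic cell markers tested, 2 were higher and 1 lower, with sums of 14.3 to 17.6 CPM in controls and 20.8 to 23.3 CPM with NETs. Gamma delta T cell markers summed to 2.55 to 3.17 CPM in controls and 2.06 to 2.89 CPM with NETs, and 1 of the 2 tested was lower. Some of the 44 genes are also known from B or myeloid cells. Examples are Ptpn6, Grb2, Malt1 and Lcp2, which rose, Ptprc and Cbl, which fell, and Vav1 and Csk, which were not called. Cd5, which rose, is known from a subset of B cells. This list is not complete, so it does not show which way the genes shared with B or myeloid cells moved. The part of these cells in the results was not tested.

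The 4 signaling chains of the receptor fell together. Cd3e, the epsilon chain (NCBI gene 12501; GRCm38, chr9:44998735-45009663), measured 314, 301 and 327 CPM in control samples 1 to 3 and 195, 219 and 189 CPM in NET samples 1 to 3. Its mean fell from 314 ± 13 (SD, n = 3) to 201 ± 16 CPM (SD, n = 3), a change of −0.65 ± 0.09 (SE) on the log2 scale (edgeR adjusted p = 0.000334). Cd3d, the delta chain, measured 235, 240 and 265 CPM in controls and 154, 154 and 125 CPM with NETs (log2 fold change −0.77 ± 0.11, edgeR adjusted p = 0.000278). In these chains, every NET sample lay below every control sample. Cd3g, the gamma chain, measured 307, 361 and 384 CPM in controls and 218, 223 and 182 CPM with NETs (log2 fold change −0.76 ± 0.12, edgeR adjusted p = 0.000512). Cd247, which encodes the zeta chain with most of the receptor's phosphorylation motifs, measured 188, 191 and 212 CPM in controls and 133, 128 and 128 CPM with NETs (log2 fold change −0.60 ± 0.09, edgeR adjusted p = 0.000348). The NET means were between 58.6% (Cd3d) and 66.0% (Cd247) of the control means. Cd247 overlaps Pou2f1 in the annotation. The use of strand in counting is not stated, so reads from the shared stretch cannot be assigned.

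Cd3g, Cd3d and Cd3e are neighbors on chromosome 9, with 1338 bases between Cd3g and Cd3d and 11683 bases between Cd3d and Cd3e. The stretches just before these 3 genes are shown because the genes fell together, beside that of Lcp2, an adaptor gene of the same pathway that rose. Sequences are from RefSeq (GRCm38.p6), run 5′ to 3′ on the strand of the gene, and stop at the outermost annotated gene end. Capitals mark matches, on either strand, to the letters AGGAAG (ETS), TGTGGT (RUNX), CAGGTG and CAGCTG (E-box), CTTTGA (TCF/LEF), TGANTCA (AP-1), GGAAAA (NFAT) and CCGCCC (SP/KLF). No match overlapped another in the 4 stretches, and a match is a description of the letters, not a bound site. The positions are chr9:44980432-44980681 on the minus strand for Cd3g, chr9:44981536-44981768 on the plus strand for Cd3d, chr9:45009664-45009861 on the minus strand for Cd3e and chr11:34046678-34046927 on the plus strand for Lcp2.
Cd3g: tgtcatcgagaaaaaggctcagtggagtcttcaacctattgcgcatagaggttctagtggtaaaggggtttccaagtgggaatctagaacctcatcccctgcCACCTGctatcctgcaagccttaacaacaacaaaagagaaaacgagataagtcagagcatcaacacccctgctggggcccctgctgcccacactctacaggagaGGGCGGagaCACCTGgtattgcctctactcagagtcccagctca
Cd3d: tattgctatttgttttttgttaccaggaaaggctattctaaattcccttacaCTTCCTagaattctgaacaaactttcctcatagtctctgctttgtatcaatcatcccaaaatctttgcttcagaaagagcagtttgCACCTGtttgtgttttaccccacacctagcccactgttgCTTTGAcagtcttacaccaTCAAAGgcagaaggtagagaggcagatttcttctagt
Cd3e: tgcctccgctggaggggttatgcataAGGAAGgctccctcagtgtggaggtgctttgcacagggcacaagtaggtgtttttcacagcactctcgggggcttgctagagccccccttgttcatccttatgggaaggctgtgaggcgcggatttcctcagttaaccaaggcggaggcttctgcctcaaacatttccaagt
Lcp2: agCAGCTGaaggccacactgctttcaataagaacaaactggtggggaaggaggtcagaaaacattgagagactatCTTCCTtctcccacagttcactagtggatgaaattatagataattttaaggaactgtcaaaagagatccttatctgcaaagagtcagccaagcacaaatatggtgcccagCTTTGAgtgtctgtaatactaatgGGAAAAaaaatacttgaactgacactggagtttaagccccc

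The 3 Cd3 stretches shared no single motif. The one of Cd3g held E-box and SP/KLF letters, that of Cd3d held ETS, E-box and TCF/LEF letters, and that of Cd3e held ETS letters. The one of Lcp2 held ETS, E-box, TCF/LEF and NFAT letters. A window of 250 bases before the start was found for 35 of the 44 genes, and all windows were searched over their whole length, also where they reach into the gene. For some genes the start used lay far from the outermost annotated gene end. The distance was 50886 bases for Grap2, 38485 for Trat1, 12880 for Dgkz, 8729 for Cd247, 8669 for Grb2, 3630 for Ubash3b and 3220 for Ptpn22. Their windows are counted below. The windows of all genes include genes that were not expressed in these samples, while all 44 genes passed the filter on low counts. The shares below are thus not matched for expression. ETS letters stood in 20 of these 35 windows (57.1%) and in 29.2% of the 27025 windows of all genes. They stood in 12 of the 20 windows of genes that fell and in 4 of the 6 windows of genes that rose. E-box letters stood in 37.1% of the 35 windows and 27.4% of all windows, TCF/LEF letters in 25.7% and 14.1%, NFAT letters in 22.9% and 20.7%, SP/KLF letters in 34.3% and 33.0%, and RUNX letters in 11.4% and 14.2%. AP-1 letters stood in 0 of the 35 windows and in 6.85% of all windows. Binding of these factors was not measured.

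Among the coreceptors and accessory receptors, 4 of 6 genes fell and 2 rose. Cd8a, the alpha chain of the CD8 coreceptor (NCBI gene 12525; GRCm38, chr6:71373427-71379171), measured 1125, 1254 and 1287 CPM in controls and 786, 877 and 790 CPM with NETs, a log2 fold change of −0.58 ± 0.10 (edgeR adjusted p = 0.00082). Cd8b1, the beta chain, measured 475, 541 and 571 CPM in controls and 415, 427 and 378 CPM with NETs (log2 fold change −0.38 ± 0.10, edgeR adjusted p = 0.0112). Neither gene's groups overlapped, but Cd8b1 was not called when control sample 3 was left out (edgeR adjusted p = 0.0699). Cd2, an adhesion receptor that binds CD48 in mice, measured 132, 160 and 163 CPM in controls and 105, 95.4 and 113 CPM with NETs (log2 fold change −0.54 ± 0.11, edgeR adjusted p = 0.00284).

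Cd4, the coreceptor of helper T cells, measured 46.1, 46.4 and 46.5 CPM in controls and 24.1, 25.7 and 35.4 CPM with NETs (log2 fold change −0.71 ± 0.14, edgeR adjusted p = 0.00223). NET sample 3 held the highest Cd4 value of its group, below every control value. Of 5 other markers of CD4 T cells, 3 were lower and 2 higher with NETs, and their summed level was 158 to 207 CPM in controls and 111 to 116 CPM with NETs. Ctla4 held most of this sum, and without it (a sum added after seeing the data) the other 4 markers came to 35.3 to 46.5 CPM in controls and 42.5 to 48.0 CPM with NETs. Il4, which was higher, stood at 0.214 to 0.260 CPM in controls and passed the filter on low counts only through the NET libraries. The part of CD4 T cells in the results was not tested.

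Cd5 and Cd6, related scavenger-receptor family genes that lie 50313 bases apart on chromosome 19, rose. Cd5, which restrains receptor signaling, measured 89.4, 95.3 and 95.2 CPM in controls and 119, 134 and 129 CPM with NETs (log2 fold change 0.45 ± 0.09, edgeR adjusted p = 0.00193). Cd6 measured 151, 138 and 144 CPM in controls and 181, 172 and 185 CPM with NETs (log2 fold change 0.31 ± 0.08, edgeR adjusted p = 0.0127). Both genes were higher in every NET sample than in any control sample. Cd6 was not called without control sample 2 (edgeR adjusted p = 0.0802).

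**Figure D2:**
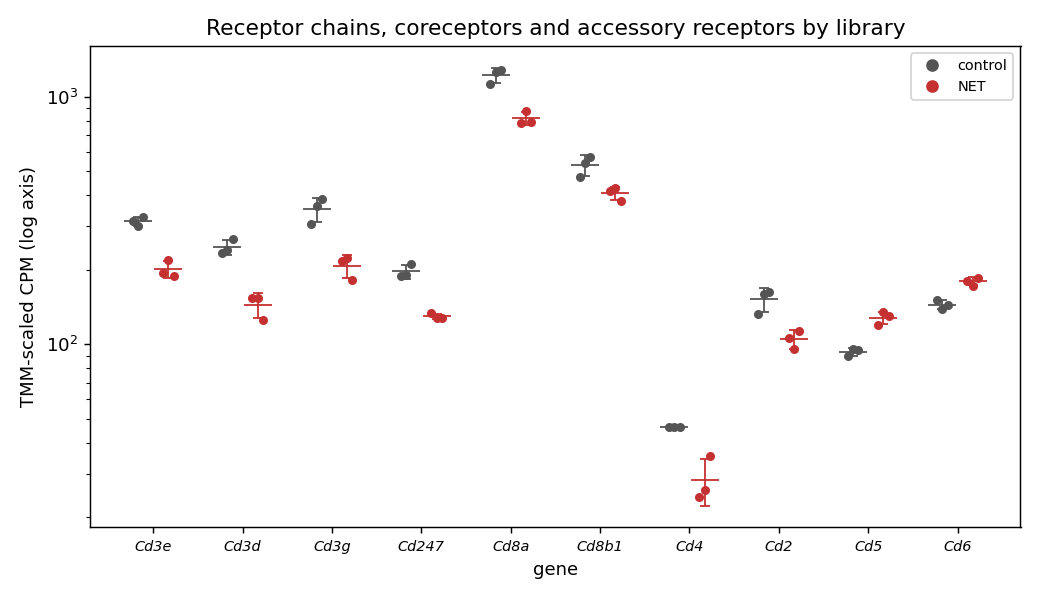
TMM-scaled CPM (log axis) of the receptor chains, coreceptors and accessory receptors in each of the 3 control and 3 NET libraries; points are libraries, horizontal lines are means and bars are SD. For all 10 genes the groups do not overlap, and of these 10 Cd5 and Cd6 lie higher with NETs.

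On the length-scaled FPKM values, which allow levels of different genes to be compared, Cd8a averaged 393 FPKM in controls and 267 FPKM with NETs, Cd8b1 averaged 365 and 284 FPKM, and Cd4 averaged 15.4 and 9.45 FPKM. The chains followed the order Cd3g, Cd3d, Cd3e, Cd247 in every library. Per library, Cd3d stood at 1.02 to 1.25 times Cd3e, Cd3g at 1.41 to 1.76 times Cd3e and Cd247 at 0.504 to 0.588 times Cd3e. These 3 ratios overlapped between the groups.

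Of the 6 tyrosine kinases, 4 fell and none was called higher. Txk, a Tec-family kinase of T cells (NCBI gene 22165; GRCm38, chr5:72695978-72752992), measured 75.6, 85.2 and 82.2 CPM in controls and 23.4, 25.0 and 19.3 CPM with NETs. Its mean with NETs was 27.8% of the control mean, a log2 fold change of −1.84 ± 0.11 (edgeR adjusted p = 1.28e-06), the lowest fold change and the smallest adjusted p among the 44 genes. Tec, of the same family, lies 2726 bases from Txk on chromosome 5 and measured 26.7, 29.0 and 28.1 CPM in controls and 31.6, 30.7 and 34.7 CPM with NETs (log2 fold change 0.21 ± 0.10, edgeR adjusted p = 0.103). The NET values of Tec all lay above the control values, but the gene was not called. With upper quartile scaling Tec passed the threshold (edgeR adjusted p = 0.0489).

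Fyn, a Src-family kinase, measured 299, 286 and 288 CPM in controls and 184, 188 and 175 CPM with NETs (log2 fold change −0.68 ± 0.08, edgeR adjusted p = 0.000122). Lck, the Src-family kinase bound to CD8 and CD4, measured 620, 626 and 677 CPM in controls and 471, 479 and 420 CPM with NETs (log2 fold change −0.49 ± 0.09, edgeR adjusted p = 0.00189). Zap70, the kinase that docks on phosphorylated chains, fell from 174 ± 17 to 132 ± 12 CPM (SD, n = 3 each; log2 fold change −0.40 ± 0.11, edgeR adjusted p = 0.0119). For these 3 kinases the groups did not overlap. Csk, which holds Src-family kinases inactive, measured 277, 243 and 254 CPM in controls and 287, 279 and 250 CPM with NETs, with overlapping groups (log2 fold change 0.08 ± 0.09, edgeR adjusted p = 0.546).

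The 10 adaptors split, with 4 higher, 2 lower and 4 not called. Lcp2 encodes SLP-76, the cytosolic scaffold that joins Lat to phospholipase C and Vav1 (NCBI gene 16822; GRCm38, chr11:34046928-34092281). It measured 269, 354 and 359 CPM in controls and 635, 709 and 789 CPM with NETs, so its mean with NETs was 217% of the control mean (log2 fold change 1.12 ± 0.13, edgeR adjusted p = 9.07e-05). Trat1, a transmembrane adaptor tied to the receptor complex, measured 15.7, 18.6 and 17.5 CPM in controls and 39.6, 47.2 and 73.1 CPM with NETs (log2 fold change 1.63 ± 0.20, edgeR adjusted p = 0.000138). NET sample 3 held the highest value of both genes, and the lowest NET value lay above every control value. Pag1, the membrane adaptor that recruits Csk, measured 59.6, 63.1 and 60.6 CPM in controls and 104, 109 and 124 CPM with NETs (log2 fold change 0.88 ± 0.09, edgeR adjusted p = 4.56e-05).

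Grb2, the adaptor that brings the Ras activator Sos1 to Lat, rose from 123 ± 4 to 148 ± 9 CPM (SD, n = 3 each; log2 fold change 0.27 ± 0.09, edgeR adjusted p = 0.0273). Its call was lost when NET sample 1 or 3 or control sample 2 or 3 was left out, with edgeR adjusted p between 0.0565 and 0.132. Sla and Sla2 encode the Src-like adaptors, which promote removal of receptor chains from the surface. Sla measured 203, 238 and 257 CPM in controls and 87.5, 92.1 and 89.6 CPM with NETs (log2 fold change −1.37 ± 0.10, edgeR adjusted p = 4.44e-06). It overlaps Tg in the annotation, with the limit on strand given for Cd247. Sla2 measured 54.8, 53.5 and 56.5 CPM in controls and 28.4, 29.4 and 23.5 CPM with NETs (log2 fold change −1.02 ± 0.11, edgeR adjusted p = 3.85e-05). Both genes were lower in every NET sample.

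Lat, the membrane scaffold that Zap70 phosphorylates, measured 238, 212 and 224 CPM in controls and 291, 250 and 239 CPM with NETs. The groups did not overlap but Lat was not called (log2 fold change 0.21 ± 0.10, edgeR adjusted p = 0.118). In the fit with replicate number as a block it was called higher (log2 fold change 0.21, edgeR adjusted p = 0.0313). Grap2, the adaptor that links Lat to SLP-76, averaged 420 CPM in controls and 403 CPM with NETs (edgeR adjusted p = 0.641). Sh2d2a, an adaptor that binds Lck, averaged 198 and 207 CPM (edgeR adjusted p = 0.546). Themis, known for its role in thymocyte selection, measured 347, 539 and 578 CPM in controls and 374, 565 and 495 CPM with NETs. Both libraries numbered 1 held its lowest values, and the spread within each group exceeded the difference of the means (log2 fold change −0.03 ± 0.20, edgeR adjusted p = 0.92).

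**Figure D3:**
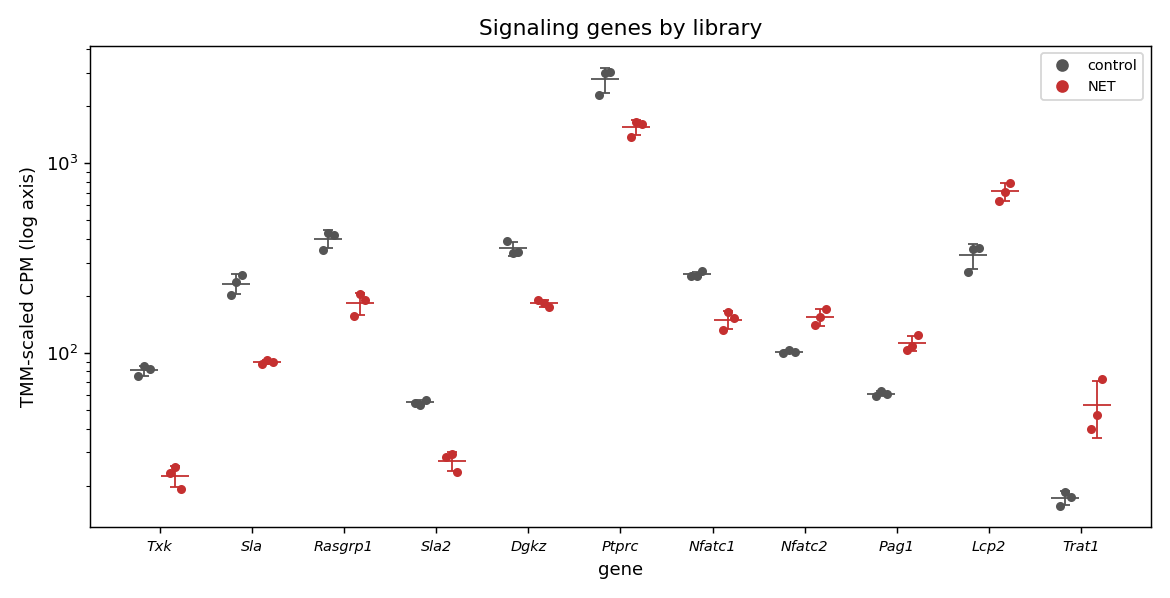
TMM-scaled CPM (log axis) of 11 signaling genes in each of the 3 control and 3 NET libraries; points are libraries, horizontal lines are means and bars are SD. Txk, Sla, Rasgrp1, Sla2, Dgkz, Ptprc and Nfatc1 lie lower with NETs, and Nfatc2, Pag1, Lcp2 and Trat1 lie higher, with no overlap between the groups.

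Among the 6 downstream enzymes and exchange factors, 2 fell, 1 rose and 3 were not called. Rasgrp1, the diacylglycerol-responsive Ras activator of T cells (NCBI gene 19419; GRCm38, chr2:117279983-117342877), measured 349, 428 and 421 CPM in controls and 156, 204 and 190 CPM with NETs (log2 fold change −1.12 ± 0.12, edgeR adjusted p = 5.82e-05). Plcg1, the phospholipase that makes diacylglycerol and inositol trisphosphate, measured 146, 147 and 142 CPM in controls and 95.3, 95.7 and 119 CPM with NETs (log2 fold change −0.49 ± 0.10, edgeR adjusted p = 0.00348). Both were lower in every NET sample. Malt1, a protease and scaffold on the path to NF-kB, measured 145, 162 and 159 CPM in controls and 220, 203 and 290 CPM with NETs (log2 fold change 0.61 ± 0.13, edgeR adjusted p = 0.00385). NET sample 3 was the highest.

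Bcl10, the partner of Malt1, measured 54.0, 58.3 and 59.6 CPM in controls and 54.2, 49.9 and 49.0 CPM with NETs, with overlapping groups (log2 fold change −0.17 ± 0.09, edgeR adjusted p = 0.155). Without both libraries numbered 1, an alternative added after the data were seen, Bcl10 was called lower (log2 fold change −0.25, edgeR adjusted p = 0.0262). The exchange factors Vav1, which acts on Rac, and Sos1, which acts on Ras, averaged 173 and 57.9 CPM in controls and 182 and 58.7 CPM with NETs. Neither was called (edgeR adjusted p = 0.55 and 0.924). Plcg1 overlaps Zhx3 and Sos1 overlaps Arhgef33 in the annotation.

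Of the 9 phosphatases, ubiquitin ligases and lipid kinases, most of which restrain the receptor, 7 fell, 1 rose and 1 was not called. Ptprc, which encodes the phosphatase CD45 that keeps Lck ready to act, had the highest level of the 44 genes per transcript length, at 561 FPKM in controls and 319 FPKM with NETs. It measured 2280, 3005 and 3012 CPM in controls and 1381, 1646 and 1613 CPM with NETs (log2 fold change −0.84 ± 0.13, edgeR adjusted p = 0.000506). Ptpn22, a phosphatase that turns off Lck and Zap70, measured 262, 347 and 346 CPM in controls and 158, 192 and 181 CPM with NETs (log2 fold change −0.84 ± 0.13, edgeR adjusted p = 0.000481). In each group the library numbered 1 was lowest for both genes, and the groups did not overlap. Ptpn6 encodes the phosphatase SHP-1 and rose, with 306, 263 and 264 CPM in controls and 425, 381 and 343 CPM with NETs (log2 fold change 0.46 ± 0.11, edgeR adjusted p = 0.00605).

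Dgkz and Dgka encode the diacylglycerol kinases zeta and alpha, which remove the lipid that activates Rasgrp1. Dgkz measured 390, 336 and 342 CPM in controls and 190, 183 and 175 CPM with NETs (log2 fold change −0.96 ± 0.09, edgeR adjusted p = 2.6e-05). Dgka, which overlaps Pmel, fell from 485 ± 43 to 321 ± 5 CPM (SD, n = 3 each; log2 fold change −0.59 ± 0.09, edgeR adjusted p = 0.000624). Neither gene's groups overlapped.

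The ubiquitin ligase gene Cblb fell from 396 ± 37 to 237 ± 39 CPM (SD, n = 3 each; log2 fold change −0.74 ± 0.13, edgeR adjusted p = 0.00121). Its relative Cbl fell from 419 ± 18 to 282 ± 51 CPM (SD, n = 3 each; log2 fold change −0.57 ± 0.13, edgeR adjusted p = 0.00453). Ubash3b, a phosphatase that acts on Zap70, was called lower, at 23.0, 27.3 and 26.0 CPM in controls and 20.0, 20.0 and 20.9 CPM with NETs (log2 fold change −0.32 ± 0.10, edgeR adjusted p = 0.0286). Leaving out NET sample 1 or 2 or control sample 2 or 3 ended that call, with edgeR adjusted p between 0.0703 and 0.128, and so did upper quartile scaling and limma on FPKM. Its relative Ubash3a, which overlaps Rsph1, averaged 72.2 CPM in controls and 71.0 CPM with NETs (edgeR adjusted p = 0.853).

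The 3 NFAT transcription factor genes did not move in one direction. Nfatc1 measured 255, 255 and 270 CPM in controls and 133, 165 and 153 CPM with NETs (log2 fold change −0.79 ± 0.10, edgeR adjusted p = 0.000145). Nfatc2 measured 99.8, 103 and 102 CPM in controls and 140, 154 and 170 CPM with NETs (log2 fold change 0.61 ± 0.09, edgeR adjusted p = 0.000553). The groups did not overlap for either gene, Nfatc1 being lower and Nfatc2 higher with NETs. Nfatc3, which overlaps Esrp2, measured 262, 329 and 331 CPM in controls and 189, 240 and 215 CPM with NETs (log2 fold change −0.52 ± 0.12, edgeR adjusted p = 0.0068).

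The balance between related members was compared as the ratio of their FPKM values within each library, for 10 pairs. The exact two-sided permutation test of 3 against 3 samples cannot give a p below 0.1, so no pair could pass 0.05. Nfatc2 over Nfatc1 was 0.285, 0.299 and 0.276 in controls and 0.780, 0.702 and 0.822 with NETs, a log2 difference of 1.42 (exact permutation p = 0.1, adjusted over the 10 pairs p = 0.2). Cd8b1 over Cd8a was 0.906, 0.926 and 0.952 in controls and 1.13, 1.04 and 1.03 with NETs, a log2 difference of 0.20. In both pairs every NET sample had the higher ratio. Fyn over Lck, Cblb over Cbl and Ubash3b over Ubash3a were lower in every NET sample, with log2 differences of −0.18, −0.16 and −0.30 and the same exact permutation p. Cd4 over Cd8a overlapped between the groups, at 0.0370 to 0.0428 in controls and 0.0295 to 0.0460 with NETs (exact permutation p = 0.5, adjusted p = 0.556). Dgkz over Dgka was 0.579, 0.437 and 0.421 in controls and 0.415, 0.421 and 0.382 with NETs, lower with NETs in all 3 same-numbered pairs. Across numbers these FPKM ratios overlapped by a small margin, with a log2 difference of −0.22. On CPM the same ratio did not overlap, at 0.890, 0.681 and 0.653 in controls and 0.582, 0.578 and 0.545 with NETs, with a log2 difference of −0.37.

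**Figure D4:**
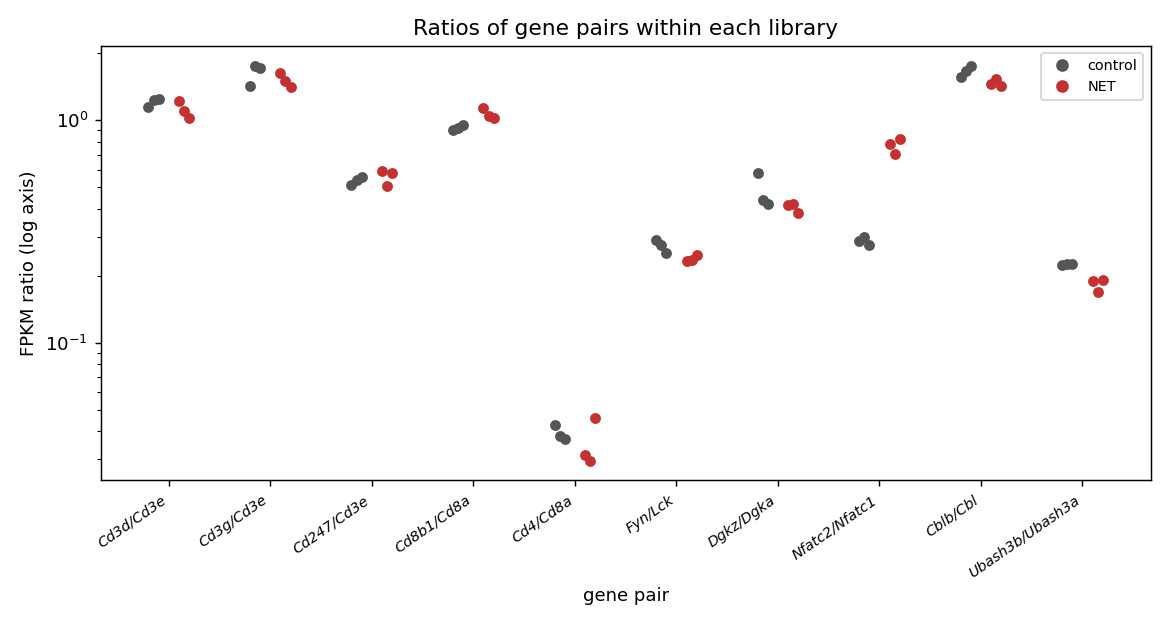
Ratio of FPKM values (log axis) of 10 gene pairs within each of the 3 control and 3 NET libraries; each point is 1 library. Nfatc2/Nfatc1 shows the widest gap of the 10 pairs, with all controls at or below 0.299 and all NET samples at or above 0.702.

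The counts and the FPKM values of a gene together give the transcript length that the authors' scaling had used in each library, relative to the other libraries. This length can move where a gene's estimated mix of transcripts differs, and it was examined after the data had been seen. For 4 of the 44 genes the implied length did not overlap between the groups and differed by at least 5%, against 1.76% of the 9266 genes with at least 1 FPKM and 100 counts in every library. Trat1 stood at 104%, 97.7% and 98.0% of the control mean in controls and at 90.6%, 85.1% and 86.2% with NETs. Pag1 stood at 92.0%, 87.7% and 87.9% with NETs and Dgkz at 90.9%, 87.3% and 91.6%, with controls at 99.0% to 101% and 99.9% to 100.1%. All 3 were shorter with NETs. Sh2d2a was longer, at 106%, 112% and 110% with NETs and 99.7% to 100.3% in controls. On FPKM values Sh2d2a averaged 79.9 in controls and 77.5 with NETs, the opposite direction to its counts, and limma on log2(FPKM + 1) gave a log2 fold change of −0.05. No such gap was seen for the other members. GENCODE lists 1 protein-coding transcript for Trat1, 2 each for Pag1 and Sh2d2a and 3 for Dgkz. The cause of these shifts was not tested.

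**Figure D5:**
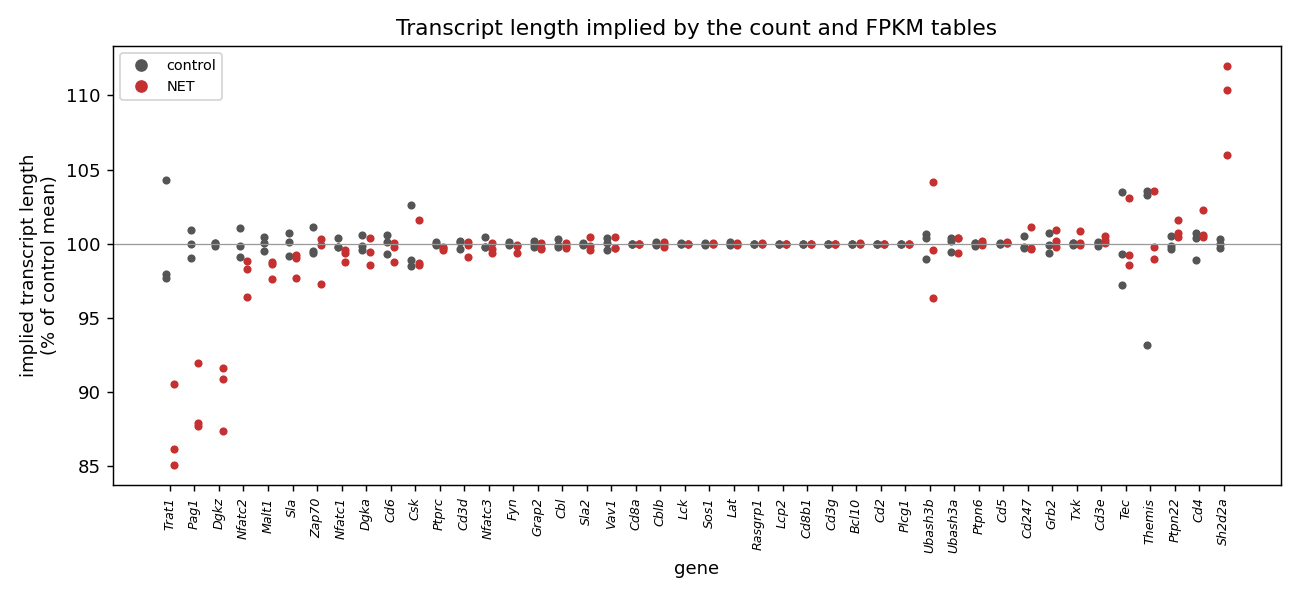
Transcript length implied by the deposited counts and FPKM values, as a percentage of the control mean, for the 44 genes in each of the 3 control and 3 NET libraries; each point is 1 library. Trat1, Pag1 and Dgkz lie at 85.1% to 92.0% with NETs and Sh2d2a at 106% to 112%.

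A list of 59 other genes of the receptor pathway, also chosen with earlier results known, held 23 genes called lower and 11 called higher, with 25 not called. These shares were 39.0% lower and 18.6% higher, against 22.3% each over all genes tested. Its median log2 fold change was 0.01. Of those that fell, Fyb, the adaptor that links the receptor to integrins, went from 368 ± 39 to 143 ± 6 CPM (SD, n = 3 each; log2 fold change −1.36 ± 0.10, edgeR adjusted p = 4.3e-06). Itpkb, the kinase that phosphorylates inositol trisphosphate, had a log2 fold change of −1.13 ± 0.09 (edgeR adjusted p = 5.06e-06). Carmil2, which acts in CD28 costimulation and overlaps Acd, had one of −1.32 ± 0.10 (edgeR adjusted p = 6.22e-06). Lax1, an inhibitory adaptor, and Itpr3, an inositol trisphosphate receptor, had values of −0.83 ± 0.09 and −0.99 ± 0.11.

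Of the pathway genes that rose, Itpr1, another inositol trisphosphate receptor, went from 124 ± 8 to 326 ± 62 CPM (SD, n = 3 each; log2 fold change 1.40 ± 0.13, edgeR adjusted p = 2.19e-05). Tespa1, which acts in receptor signaling of thymocytes, went from 34.8 ± 2.6 to 78.8 ± 8.0 CPM (log2 fold change 1.18 ± 0.10, edgeR adjusted p = 1.37e-05). Dok2, an inhibitory adaptor that overlaps Xpo7, had a log2 fold change of 1.19 ± 0.11 (edgeR adjusted p = 1.57e-05). Sit1, a transmembrane adaptor, and Rasal3, a Ras inhibitor, had values of 1.01 ± 0.13 and 0.64 ± 0.09. Of the 3 inositol trisphosphate receptor genes, Itpr1 was thus higher with NETs and Itpr3 lower, and Itpr2 was lower as well (log2 fold change −0.54 ± 0.11, edgeR adjusted p = 0.00304). Itpr2 fell outside the rule for named genes and was chosen after its values were seen.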

How the data were processed

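RNA of mouse spleen CD8+ T cells (3 NET and 3 control samples) was sequenced from poly(A) libraries with marked strands. The authors deposited estimated counts per gene, not scaled between libraries, and FPKM values, in which the authors had divided fragments by transcript length and library size. The submitters' processing notes name the build mm10. Neither the aligner nor the counting program is given in the sources used here. Of 22064 genes listed, 6459 were blank in every sample and treated as missing, not as 0.

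Estimated counts were rounded, filtered with filterByExpr, scaled by TMM and compared with the quasi-likelihood test of edgeR 4.0.16 (R 4.3.3). Group was the single term, with Benjamini-Hochberg adjustment over 12546 genes. Fold changes carry standard errors from the F statistic. The fit was tested on simulated data. Coordinates came from RefSeq for GRCm38, which matched all 44 genes. Alternatives were other scalings and filters, DESeq2 1.42.0, limma-voom and limma (3.58.1) on log2(FPKM + 1) and log2(FPKM + 0.1), a block for replicate number, and fits without single libraries.

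The members, the lists and the rule for named genes were chosen with earlier results of these data known. The rule named every member, gave values in every sample for the chains, Cd8a, Cd8b1, Cd4 and, in each role group, up to 3 genes with the smallest adjusted p in each direction, and named up to 5 other pathway genes in each direction. Same-numbered samples deviated together from their group means, most clearly for number 1 (correlations across genes 0.56, 0.22 and 0.11 for numbers 1 to 3). The labels do not say that the numbers pair the samples. Replicate number was used as a block in an alternative fit and not in the main fit. Replicates differed by more than sampling noise (chi-square per degree of freedom 3.05 to 27), so none was counted as a repeat deposit.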

Additional observations from a re-analysis of the deposited data

How the results depend on the processing

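Over the 17 alternatives, the number of the 44 genes called lower stayed between 23 and 26 and the number called higher between 7 and 10. Leaving out 1 library gave 23 to 25 lower and 7 to 9 higher, 2104 to 2893 lower and 2231 to 2901 higher over all genes, and 19 to 25 lower and 10 to 12 higher among other pathway genes. With the replicate number as a block, 25 of the 44 genes were lower and 10 higher, 3534 and 3484 over all genes, and 26 and 15 among other pathway genes; the block changed the call of Lat and of no other member. Of the 34 genes called, 30 were called in the same direction under every alternative run, 23 of them lower and 7 higher. The exceptions were Cd8b1, Cd6, Grb2 and Ubash3b, whose log2 fold changes without 1 library ranged from −0.46 to −0.31, 0.28 to 0.36, 0.24 to 0.34 and −0.40 to −0.27. Ubash3b was −0.28 with upper quartile factors, −0.25 on log2(FPKM + 1) and −0.30 on log2(FPKM + 0.1).

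Direction turned in genes that were not called. Upper quartile factors gave 0.019 for Themis and 0.023 for Ubash3a. Without 1 library Themis ranged from −0.23 to 0.12, Ubash3a from −0.078 to 0.020, Sos1 from −0.10 to 0.17 and Grap2 from −0.11 to 0.011. Sh2d2a was −0.046 on log2(FPKM + 1) and −0.047 on log2(FPKM + 0.1). Its implied transcript length is computed from the same counts and FPKM values and so restates this difference. The cause of these turns was not tested. Tec gained a call with upper quartile factors (0.26) and Bcl10 without both libraries numbered 1 (−0.25). The log2 differences of the 10 pairs moved by less than 1 SD (the larger of the SDs of the 2 groups) on TMM-scaled CPM and without any 1 library. For Dgkz over Dgka that SD was 0.25, set by control sample 1, and the difference went from −0.22 to −0.37 on TMM-scaled CPM, where the groups no longer overlapped, and to −0.081 without control sample 1. The step from FPKM to CPM restates the implied transcript length of Dgkz, which differed by −10.1% with NETs, against −0.548% for Dgka. With 3 samples per group, exact permutation tests could not go below 0.1.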
